A study of Rattus norvegicus with 8 samples.

Results

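The 10 genes described here encode the main structural proteins of the neuronal cytoskeleton and a pair of growth cone proteins, and they were chosen by name from the transcript records, 1 RefSeq record per gene. They were Tuba1a (NM_022298), Tubb3 (NM_139254), Nefl (NM_031783), Nefm (NM_017029), Nefh (NM_012607), Prph (NM_012633), Ina (NM_019128), Mapt (NM_017212), Gap43 (NM_017195) and Stmn2 (NM_053440). All 10 were found among the 18314 records quantified in every rat. RNA was measured in right stellate ganglia, the sympathetic ganglia that send postganglionic fibres to the heart, from 4 male normotensive Wistar rats and 4 male spontaneously hypertensive rats (SHR), all aged 16 weeks and none given a treatment. SHR are an inbred strain with genetic hypertension, whereas Wistar is an outbred stock, so blood pressure and all other genetic differences between them cannot be told apart. Each library came from 1 rat, and a ganglion holds neurons together with satellite glia, Schwann cells, fibroblasts and vessels.

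Microtubules are hollow polymers of alpha and beta tubulin that fill the axon and serve as rails for transport, and tau, encoded by Mapt, binds along them. Neuronal intermediate filaments are rope-like polymers of neurofilament light, medium and heavy chains (Nefl, Nefm, Nefh) with alpha-internexin (Ina) and peripherin (Prph). Neurofilaments set axon calibre, and peripherin is abundant in peripheral neurons, including sympathetic neurons. Gap43 is a membrane-bound protein of growth cones and presynaptic terminals, and Stmn2 (stathmin-2) is a tubulin-binding protein of growing axons.

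Library depth ran from 25820299 to 35509074 estimated counts per rat. The tissue label was checked with fixed marker lists, whose TPM (a level scaled to sequencing depth and corrected for transcript length) was summed in each rat. The 11 sympathetic neuron markers summed to between 18370 and 19980 TPM in Wistar and between 14750 and 18650 TPM in SHR (two-sided exact permutation p = 0.1143, Benjamini-Hochberg adjusted p = 0.6857 over 6 lists). Dbh, the enzyme that makes noradrenaline, was at 5190 to 6770 TPM in Wistar and 3640 to 5650 TPM in SHR. Satellite glia and Schwann cell markers summed to between 2263 and 2752 TPM in Wistar and between 2052 and 2739 TPM in SHR. Pmp22 held most of that sum, at 1540 to 1850 TPM in Wistar and 1380 to 1940 TPM in SHR. Sox10 was at 5.05 to 5.98 TPM in Wistar and 5.22 to 9.02 TPM in SHR and hardly entered it. Fibroblast markers summed to between 506.1 and 1574 TPM over the 8 rats. Dcn held most of that sum, at 526 to 927 TPM in Wistar and 364 to 1240 TPM in SHR. Vascular markers summed to between 50.31 and 165.6 TPM and macrophage markers to between 20.66 and 99.41 TPM. No gene of the 6 lists was called between strains. The summed adipocyte and muscle list was highest in SHR 1, at 254.8 TPM, against at most 125 TPM in any Wistar rat. By single gene, scaled to library size, the adipocyte genes Adipoq, Fabp4 and Cfd peaked in SHR 1. The muscle genes Acta1, Ckm, Myh1 and Myh2 peaked in other rats.

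RefSeq promoter windows, from 250 bases before to 50 bases after an annotated start in the GRCr8 assembly, were given for 4 of the 10 genes. The Tuba1a and Prph windows lie inside the annotated gene spans, 131992151 to 131996850 and 132096888 to 132101070 on chromosome 7. Their start is therefore not the outermost start of the gene. They are shown because they cover the pair of most abundant tubulin genes and a pair of filament genes whose levels are compared below. Capitals mark TATAA (the TATA box core), CCAAT and GGGCGG (a GC box), searched on both strands.
Tuba1a, chr7:131995770-131996069, minus strand: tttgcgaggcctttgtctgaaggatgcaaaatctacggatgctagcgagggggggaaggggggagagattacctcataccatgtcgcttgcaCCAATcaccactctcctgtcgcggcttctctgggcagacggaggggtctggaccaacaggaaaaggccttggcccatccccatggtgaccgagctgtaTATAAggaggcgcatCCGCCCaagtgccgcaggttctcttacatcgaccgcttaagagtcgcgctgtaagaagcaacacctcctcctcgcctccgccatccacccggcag
Tubb3, chr19:68365437-68365736, plus strand: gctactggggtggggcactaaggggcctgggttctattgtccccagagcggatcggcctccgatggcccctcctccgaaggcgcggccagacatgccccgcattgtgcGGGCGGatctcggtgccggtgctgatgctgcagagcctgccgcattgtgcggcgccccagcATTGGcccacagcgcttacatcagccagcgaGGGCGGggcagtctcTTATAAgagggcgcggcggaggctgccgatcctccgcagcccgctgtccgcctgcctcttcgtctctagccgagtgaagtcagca
Prph, chr7:132097039-132097338, plus strand: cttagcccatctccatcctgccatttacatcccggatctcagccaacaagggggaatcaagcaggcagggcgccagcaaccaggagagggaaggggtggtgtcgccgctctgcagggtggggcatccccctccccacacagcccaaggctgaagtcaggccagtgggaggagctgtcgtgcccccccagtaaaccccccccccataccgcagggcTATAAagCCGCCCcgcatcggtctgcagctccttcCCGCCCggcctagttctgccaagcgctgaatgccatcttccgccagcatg
Ina, chr1:255837879-255838178, plus strand: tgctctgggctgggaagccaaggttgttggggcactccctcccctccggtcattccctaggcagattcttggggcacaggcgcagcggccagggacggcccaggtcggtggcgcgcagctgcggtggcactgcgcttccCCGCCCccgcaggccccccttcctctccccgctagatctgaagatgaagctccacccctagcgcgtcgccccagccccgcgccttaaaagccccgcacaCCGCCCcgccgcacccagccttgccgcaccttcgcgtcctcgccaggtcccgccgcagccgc
GC content was 58.3% in Tuba1a, 67.3% in Tubb3, 64.3% in Prph and 71.7% in Ina, against a median of 51.7% over 33469 windows of the same length. Tuba1a, Tubb3 and Prph held TATAA, at 60, 34 and 35 bases before the start used for the window, a motif found in 26.2% of all windows. In Tubb3 the match lies in a palindrome, so it is read on both strands at nearly the same position. Tuba1a and Tubb3 also held CCAAT (37.5% of all windows), and all 4 windows held GGGCGG (33.1% of all windows). The Ina window held neither TATAA nor CCAAT.

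The tubulins led the genes in level. Mean TPM over the 8 rats was 21610 for Tuba1a (alpha tubulin) and 10180 for Tubb3 (the neuronal beta tubulin). Growth-associated Stmn2 followed at 3335 TPM and Gap43 at 1945 TPM. Among the filament genes the order was Prph at 852.8, Nefl at 460.4, Nefm at 334.7, Ina at 50.23 and Nefh at 21.03 TPM, with Mapt between Nefm and Ina at 159.2 TPM. The ranges of neighbouring genes over the 8 rats overlapped only for Prph and Nefl, Nefl and Nefm, and Nefm and Mapt. Prph exceeded Nefl in 6 of 8 rats, Nefl exceeded Nefm in 7 of 8, and Nefm exceeded Mapt in 7 of 8. Together the 10 genes took 5.222% ± 0.168 of the estimated counts of a Wistar library and 5.397% ± 0.4 of those of an SHR library (SD over n = 4 rats per strain, two-sided exact permutation p = 0.4571).

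The first comparison asked whether any of these genes differs between hypertensive and normotensive ganglia. None of the 10 passed edgeR's quasi-likelihood test at a Benjamini-Hochberg adjusted p under 0.05, in a test in which 389 of 13659 records, 2.85%, were called. DESeq2 also called none of the 10, and 780 of 13630 records, 5.72%, over the whole table. At an unadjusted p under 0.05 edgeR gave 4 of the 10 and DESeq2 gave 3, against 16.8% of all records in edgeR. The share of all records at that cut was not counted in DESeq2, so its 3 cannot be set against a background. The lowest adjusted p reached by any of the genes was 0.127 in edgeR, for Nefh, and 0.0636 in DESeq2. Of the 10 log2 fold changes (SHR over Wistar), 5 were above 0 and 5 below, with a median of -0.021 beside 0.007 over all records tested. In bulk tissue, fewer neurons and less RNA per neuron cannot be told apart.

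**Figure D1:**
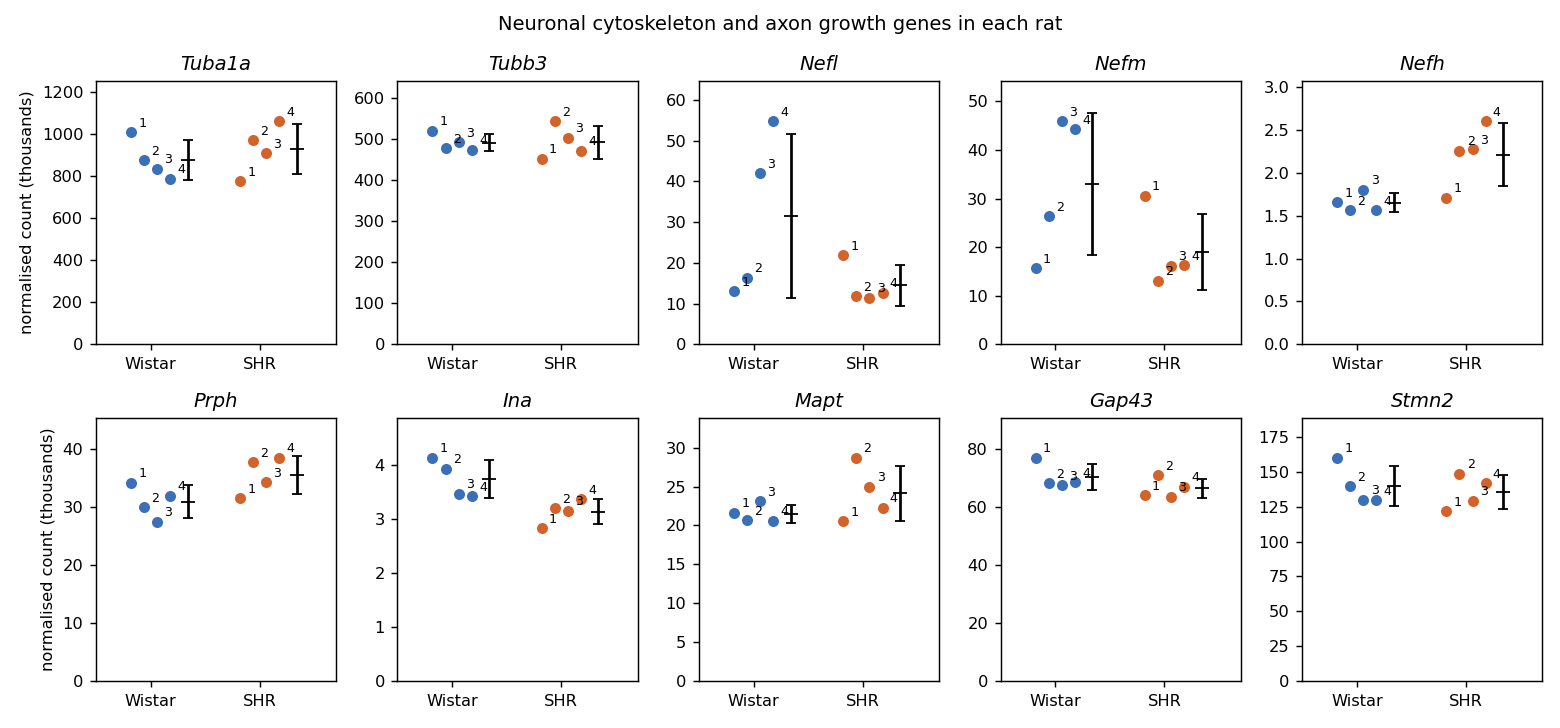
Normalised count of each of the 10 genes in each rat, with 1 panel per gene and a vertical axis from 0. Points are rats numbered within strain, and bars give mean and SD (n = 4 each). Nefl and Nefm spread widely within Wistar, whereas Tubb3 and Gap43 stayed within a factor of 1.20 and 1.21 over all 8 rats.

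Nefl, which encodes the light chain that neurofilaments need in order to assemble, varied most of the 10. Its normalised count (scaled to a common library size) was 13017, 16324, 42024 and 54792 in Wistar rats 1 to 4, and 21905, 11831, 11400 and 12615 in SHR 1 to 4. Wistar 3 and 4 stood above every SHR, while Wistar 1 lay close to SHR 2, 3 and 4 and below SHR 1. The mean was 31539 ± 20209 in Wistar and 14438 ± 5004 in SHR (SD over n = 4 rats per strain), and the log2 fold change was -1.13 (SE 0.43, edgeR adjusted p = 0.229). Leaving out 1 rat at a time moved this value between -1.41 and -0.71, with the smallest difference when Wistar 4 was left out.

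Nefm, the medium chain, followed the same order of rats closely. Its normalised count was 15627, 26402, 45942 and 44229 in Wistar 1 to 4, and 30570, 13114, 16135 and 16331 in SHR 1 to 4. The strains overlapped, since SHR 1 exceeded Wistar 1 and Wistar 2. The log2 fold change was -0.80 (SE 0.35, edgeR adjusted p = 0.291), between means of 33050 ± 14594 in Wistar and 19037 ± 7828 in SHR (SD over n = 4 rats per strain).

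Nefh, the heavy chain of mature large axons, was the least abundant of the 10 and had its higher mean in SHR. Its normalised count was 1662, 1569, 1803 and 1567 in Wistar and 1714, 2263, 2281 and 2606 in SHR. SHR 1 alone fell inside the Wistar range. The mean was 1650 ± 111 in Wistar and 2216 ± 370 in SHR (SD over n = 4 rats per strain), with a log2 fold change of 0.43 (SE 0.13, edgeR adjusted p = 0.127). Without SHR 1, the library in which Adipoq, Fabp4 and Cfd peaked, the log2 fold change was 0.53 and the edgeR adjusted p was 0.0224. That was the one omission of a rat that brought any of the 10 genes past the threshold. The share of all records called without SHR 1 was not counted, so the call cannot be read as particular to Nefh.

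Prph, the filament protein typical of peripheral neurons, was at 34280, 30063, 27473 and 32011 normalised counts in Wistar and 31572, 37812, 34356 and 38536 in SHR. The strains overlapped, since SHR 1 lay below Wistar 1 and Wistar 4, and the log2 fold change was 0.20 (SE 0.10, edgeR adjusted p = 0.344). Ina, the internexin subunit, was at 4128, 3924, 3465 and 3417 normalised counts in Wistar and 2823, 3198, 3149 and 3364 in SHR. Ina was the only one of the 10 whose normalised counts did not overlap between strains, and 10.6% of all records tested had no overlap either. Its log2 fold change was -0.25 (SE 0.10, edgeR adjusted p = 0.229), and the two-sided exact permutation p of 0.02857 is the smallest that 4 rats against 4 allow. On the TPM scale the Ina ranges did overlap, since SHR 3 at 51.6 TPM lay above Wistar 4 at 49.42 TPM. The estimated count of Ina was not a whole number in any of the 8 libraries (to within 0.005).

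The means of the tubulins, Mapt and the growth cone genes lay within 0.17 of each other between strains on the log2 scale, and the strains overlapped for each. Tuba1a ran from 788389 to 1010555 normalised counts in Wistar and from 777088 to 1063021 in SHR, with a log2 fold change of 0.084 (SE 0.12, edgeR adjusted p = 0.759). Tubb3 averaged 491353 ± 21243 normalised counts in Wistar, against 492663 ± 40190 in SHR (SD over n = 4 rats per strain), with a log2 fold change of 0.0038 (SE 0.086) whose sign turned without the low-count filter and in limma. Both belong to families of near-identical genes that can exchange reads, so their levels are uncertain to that extent. Counts are deposited to 6 digits, so whether those of the tubulins are whole numbers cannot be seen. Mapt ran from 20598 to 23098 normalised counts in Wistar and from 20569 to 28694 in SHR, with a log2 fold change of 0.17 (SE 0.11, edgeR adjusted p = 0.469).

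Gap43 ran from 67518 to 76925 normalised counts in Wistar and from 63514 to 70978 in SHR, with a log2 fold change of -0.082 (SE 0.08, edgeR adjusted p = 0.643). Stmn2 ran from 129823 to 160138 normalised counts in Wistar and from 121741 to 148917 in SHR, with a log2 fold change of -0.046 (SE 0.10, edgeR adjusted p = 0.855) that turned positive under upper quartile scaling. The strains overlapped for both genes. Wistar 1 held the highest value of each.

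The spread within strains was then set against that of other abundant records. The SD of log2 normalised counts within strains was 0.782 for Nefl and 0.639 for Nefm, at percentiles 98.2 and 97.3 of 2624 records at least as abundant as Nefh, whose median SD was 0.154. Nefh stood at percentile 72 of the same records and Ina at percentile 24.8. Tubb3 and Gap43, with SDs of 0.0933 and 0.0811, were among the steadiest, at percentiles 8.9 and 4.8. The effective length assigned by Salmon differed between rats by a factor of at most 1.04 for Nefl and 1.012 for Nefm. The highest rat exceeded the lowest 4.81-fold for Nefl and 3.50-fold for Nefm, against 1.66-fold for Nefh and 1.20-fold to 1.46-fold for the other 7 genes.

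The make-up of the filament network was described by the share of each subunit in the summed TPM of the 5 filament genes. Prph made up 62.1, 51.12, 31.6 and 31.82% in Wistar 1 to 4 and 47.45, 67.29, 63.49 and 64.94% in SHR 1 to 4. Nefl made up 18.37, 21.65, 38.18 and 43.11% in Wistar and 25.94, 16.39, 16.47 and 16.57% in SHR. In Wistar 3 and 4 Nefl transcripts exceeded Prph transcripts, which happened in no other rat. The summed Nefl and Nefm TPM was 2.06 times that of Prph in both Wistar 3 and Wistar 4, and between 0.414 and 1.03 times in the other 6 rats.

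Averaged by strain, the Nefl share was 30.33% ± 12.16 in Wistar and 18.84% ± 4.733 in SHR (SD over n = 4 rats per strain, two-sided exact permutation p = 0.1714, adjusted p = 0.2857 over the 5 subunits). The Prph share was 44.16% ± 15.06 in Wistar and 60.79% ± 9.032 in SHR (exact permutation p = 0.1429, adjusted p = 0.2857). Nefh made up 0.9934% ± 0.2632 in Wistar and 1.592% ± 0.3405 in SHR (exact permutation p = 0.08571, adjusted p = 0.2857). None of the 5 shares passed after adjustment. Among tubulins, Tubb3 made up 55.05% ± 1.247 of 7 beta tubulin records in Wistar and 55.19% ± 1.183 in SHR (exact permutation p = 0.8571), and Tuba1a made up 83.02% ± 0.2686 of 8 alpha tubulin records in Wistar and 83.47% ± 0.6301 in SHR (exact permutation p = 0.3143).

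**Figure D2:**
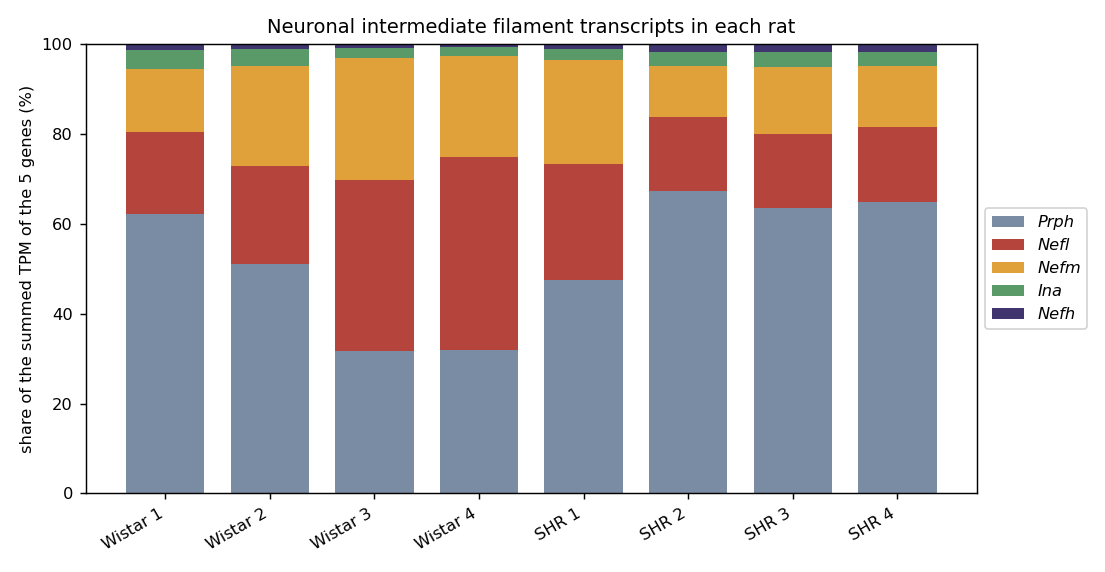
Share of each of the 5 neuronal intermediate filament genes in their summed TPM, stacked to 100%, in each of the 8 rats. Prph takes the largest share in 6 rats, and Nefl takes the largest share in Wistar 3 and 4, at 38.18 and 43.11%.

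The second comparison asked which of the genes vary together from rat to rat. Pearson's r of log2 normalised counts was computed for all 45 pairs over the 8 rats, with a two-sided exact permutation p over all pairings. Nefl with Nefm was the 1 pair that passed adjustment, at r = 0.947 (exact permutation p = 0.00062, adjusted p = 0.0279) and Spearman's rho of 0.857 (exact permutation p = 0.0107, adjusted p = 0.258). Without Wistar 3 and 4, the rats farthest from the median of Nefl, r was 0.937 (exact permutation p = 0.0139), and with each strain centred on its own mean it was 0.922. The adjusted p of the pair exceeded 0.05 when any rat other than SHR 3 was left out, where r ranged from 0.926 to 0.968. SHR 2, 3 and 4 and Wistar 1 lay close together at the low end of both genes, and the other 4 rats spread upwards from them. Among all pairs of the 2624 abundant records, 0.436% had an r at least as high.

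Gap43 with Stmn2 came next at r = 0.878 (rho 0.762, exact permutation p = 0.00414, adjusted p = 0.0932), and r was 0.788 without Wistar 1 and SHR 3. The filament genes did not vary as a block. Prph ran against Nefm, at r = -0.84 (exact permutation p = 0.0098, adjusted p = 0.143), and so did Tuba1a, at r = -0.834 (adjusted p = 0.143 from the same permutation test). Nefl and Ina had r = -0.057 over the 8 rats and r = -0.926 with each strain centred. Over the 45 pairs the median r was 0.179, beside 0.16 over all pairs of abundant records, with 25 pairs above 0 and 20 below.

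**Figure D3:**
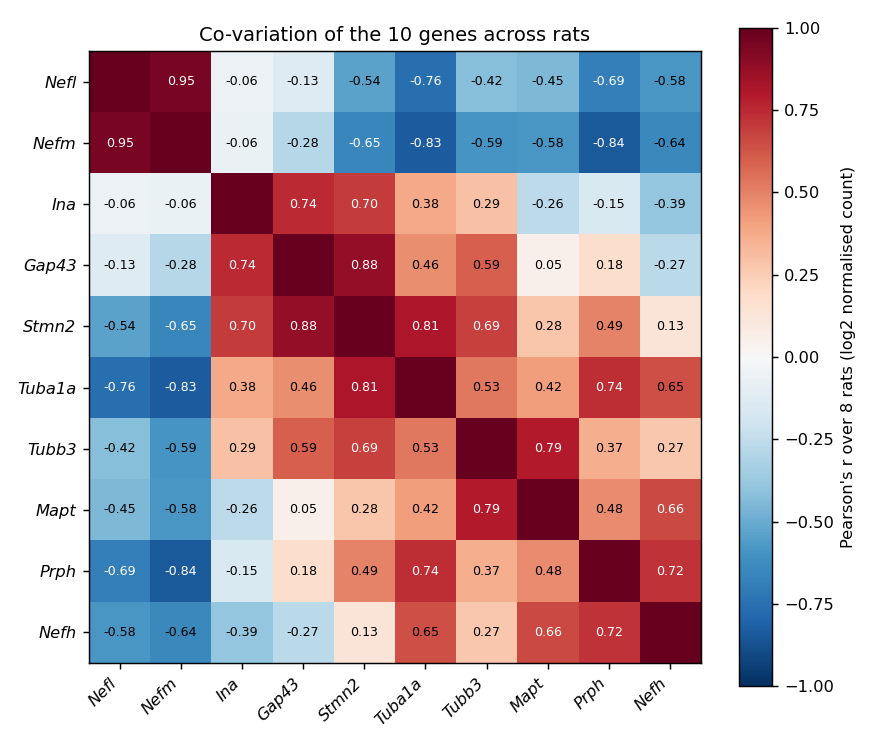
Pearson's r of log2 normalised counts over the 8 rats for each of the 45 pairs of genes, on a colour scale from -1 to 1. Nefl and Nefm form the pair with the highest r, 0.947, and Nefm has r = -0.84 with Prph.

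Other records were ranked by how closely they followed these genes over the 8 rats, among 9524 named records with a mean of at least 100 normalised counts. For the joint profile of Nefl, Nefm and Nefh the nearest were Tspan13 (r = 0.968), Atp1b2 (0.956), Rnf139 (0.953), Cdc16 (0.95) and Nrbf2 (0.945). For Gap43 with Stmn2 they were Mrpl49 (r = 0.983), Eif2b1 (0.975), Blvra (0.974), Psmc3 (0.971) and Eif3l (0.97). Since Nefh did not follow the other neurofilament chains, Nefl and Nefm were also ranked without it, a choice made after their values were seen. The nearest were then Pla2g6 (r = 0.996), Adrm1 (0.994), Spcs2 (0.994), Pdia3 (0.99) and Fbxl15 (0.99), whose highest rat exceeded the lowest from 4.98-fold to 13.9-fold. Being the highest of 9524 values over 8 rats, these r are a description.

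Vim, which encodes vimentin, an intermediate filament protein of glia, fibroblasts and vessels, was looked at after its values were seen. Its normalised count was 6606, 16831, 34924 and 30488 in Wistar and 30497, 6446, 6993 and 8113 in SHR. High and low rats for Vim were those for Nefm, including SHR 1 and Wistar 1. Pearson's r over the 8 rats was 0.971 with Nefm (rho 0.976) and 0.887 with Nefl (rho 0.81), and the latter was 0.976 without the pair of rats farthest from the median. With Prph r was -0.81 and with Nefh it was -0.622. Since Vim was picked for this pattern, these r are a description with no test. Vim did not pass the strain test, with a log2 fold change of -0.77 (edgeR adjusted p = 0.5386).

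**Figure D4:**
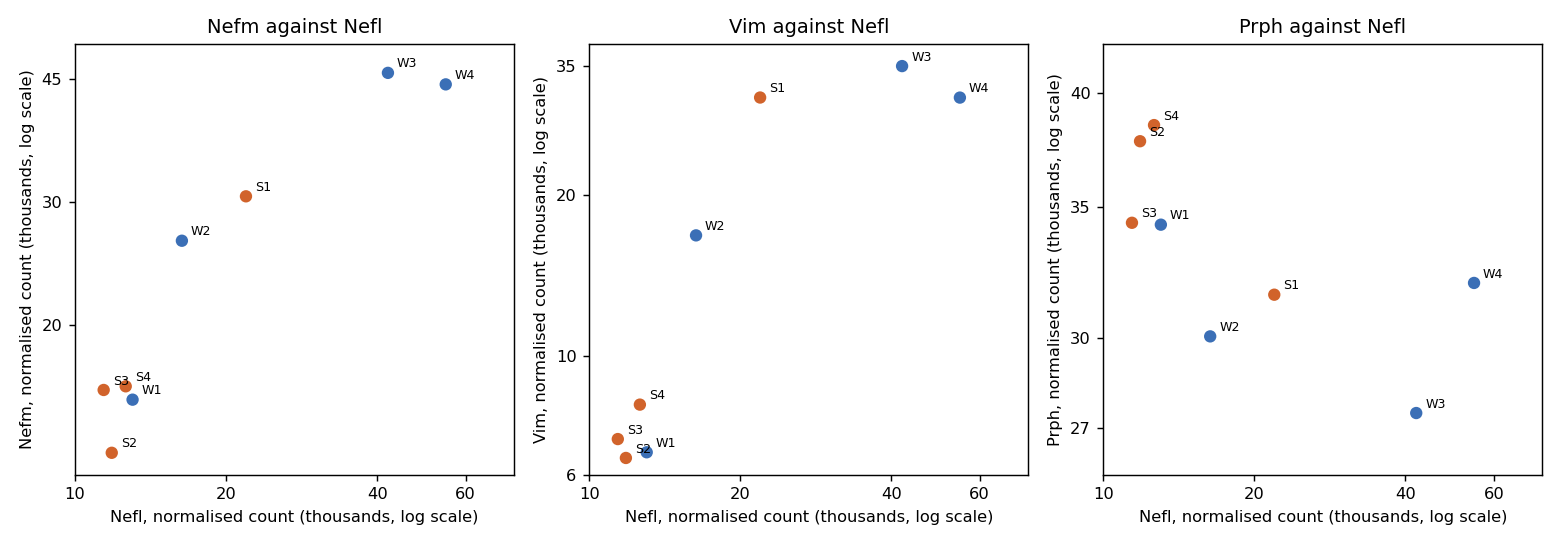
Normalised count of Nefm, Vim and Prph against that of Nefl in each of the 8 rats, with 1000 counts as the unit on log axes, with rats marked by strain and number. Nefm and Vim rise with Nefl (r = 0.947 and 0.887), while Prph is lowest in Wistar 3.

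The leading axis of variation between libraries moved with Nefl as well. A principal component of 10043 other records held 40.2% of their variance. Its score had r = 0.794 with Nefl (rho 0.929, r = 0.799 without the pair of farthest rats). The component was chosen after the data were seen, so these r are a description with no test. Scores were 5.33, 19.2, 33.1 and 25.6 in Wistar and 5.85, -18.1, -36.6 and -34.5 in SHR. All 4 Wistar rats and SHR 1 thus scored above 0 and the other SHR below, and the r with Nefl was not separated from strain. No summed marker list had an adjusted p under 0.05 with Nefl. The nearest was the vascular list, at r = 0.628 (exact permutation p = 0.0723, adjusted p = 0.434), and the neuron list had r = 0.048 (exact permutation p = 0.901). Without the pair of farthest rats r was 0.846 for the fibroblast, 0.775 for the adipocyte and muscle and 0.692 for the vascular list. It was 0.531 for the macrophage, -0.595 for the neuron and -0.714 for the glial list, with no test. By single gene, r with the mean of Nefl and Nefm ran from -0.803 (Slc6a2) to 0.930 (Gata3) in the neuron list. It ran from -0.636 (Egr2) to 0.909 (Mbp) in the glial list and from 0.197 (Dcn) to 0.735 (Col1a2) in the fibroblast list. In the vascular list it ran from -0.586 (Flt1) to 0.693 (Pecam1). Tagln, with r = 0.566, reached the highest TPM of that list, at 51.1 to 121 in Wistar and 13.6 to 120 in SHR. The vascular sum thus leans on 1 gene. The part of tissue make-up in the spread of Nefl was not tested further.

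The wider cytoskeleton was described with 7 lists of other tubulins, microtubule-associated proteins, motors, other intermediate filaments, the membrane skeleton, actin regulators and axon growth genes. Of 113 records tested in these lists 3 were called, 2.65%, beside 2.85% of all records. Kif5a, a heavy chain of the kinesin motor that carries neurofilaments and other cargo along axons, was at 10729, 9710, 10351 and 8905 normalised counts in Wistar and 13897, 15222, 21078 and 14713 in SHR. Every SHR exceeded every Wistar rat, with a log2 fold change of 0.71 (SE 0.14, edgeR adjusted p = 0.0206). In limma on log2 TPM the adjusted p of Kif5a was 0.0591, so its call was lost there. Kif5b, its widely expressed relative, had a log2 fold change of -0.64 (edgeR adjusted p = 0.0543).

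Klf6, a transcription factor tied to axon growth, rose from 4153 ± 293 normalised counts in Wistar to 5908 ± 624 in SHR (SD over n = 4 rats per strain), with a log2 fold change of 0.51 (SE 0.098, edgeR adjusted p = 0.0217). Pfn2, the neuronal profilin that binds actin monomers, was lower in SHR, at 25498 ± 1263 normalised counts in Wistar against 18412 ± 1490 in SHR (SD over n = 4 rats per strain), with a log2 fold change of -0.47 (SE 0.085, edgeR adjusted p = 0.0161). Without Wistar 2 the edgeR adjusted p was 0.0751 for Kif5a, 0.0634 for Klf6 and 0.059 for Pfn2, and without Wistar 4 it was 0.0758, 0.0836 and 0.0669, so that all 3 calls were lost. Without Wistar 3 those of Kif5a (0.0539) and Klf6 (0.0611) were lost. Without SHR 1 the lists held 7 calls. The share of all records called was not counted there, so this cannot be read as particular to the lists.

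The other 4 lists held no call, and the gene with the smallest p in each had a log2 fold change of 0.29 for Tuba4a (edgeR adjusted p = 0.131), -0.39 for Dclk1 (0.112), 0.56 for Plec (0.0506) and 0.77 for Gfap (0.234). DESeq2 called Kif5b (adjusted p = 0.00286), Dclk1 (adjusted p = 0.0405) and Plec (adjusted p = 0.00648) besides Kif5a, Klf6 and Pfn2. These were 6 of the 113 list records, beside 780 of 13630 records, 5.72%, called by DESeq2 over the whole table, so the lists did not stand out. The Plec values are those of its most abundant record of 11. With records summed to genes its log2 fold change was 0.343 (edgeR adjusted p = 0.144). Median log2 fold changes of the 7 lists lay between -0.062 and 0.239.

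**Figure D5:**
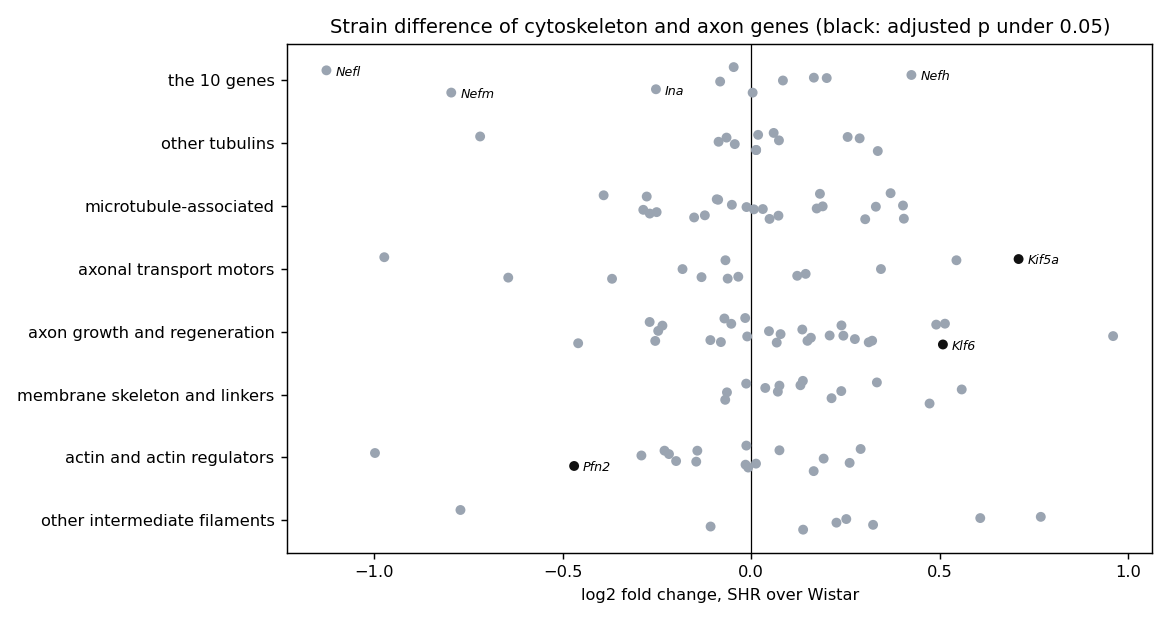
Log2 fold change (SHR over Wistar) of the 10 genes and of the records in each of the 7 other cytoskeleton lists, with 1 row of points per list. Black points passed an edgeR adjusted p under 0.05, which were Kif5a, Klf6 and Pfn2 and none of the 10.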

How the data were processed

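RNA of 8 ganglia was sequenced, 1 library per rat. The labels name a stranded TruSeq kit, whereas the study's methods describe SMARTer amplification, so the kit is uncertain. According to the submitters' processing notes reads were checked with FastQC 0.11.7 and quantified with Salmon 0.8.2, with rn6 named as the genome build. The deposited files give, for each RefSeq record, an estimated count, which can be fractional and is not normalised between samples, and a TPM as the authors computed them, with lengths and effective lengths.

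Gene names came from a RefSeq table (GRCr8), which matched 17360 of 18314 records (94.8%), and 169 of 183 genes on the lists were found. The members and lists were chosen with earlier results of these data known. Estimated counts were rounded and tested in edgeR 4.0.16 (TMM scaling, filterByExpr, glmQLFit and glmQLFTest, R 4.3.3) with Benjamini-Hochberg adjustment over all 13659 records kept, at a threshold of 0.05. Normalised counts are TMM-scaled CPM brought back to the mean library size. Alternatives were DESeq2 1.42.0, without and with a length offset, other scalings and filters, records summed to genes, limma 3.58.1 on log2(TPM + 0.1), a replicate block, and leaving out each rat.

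Shares and sums were tested by exact permutation in SciPy 1.17.1. Correlations were tested by going through all pairings of the rats, and only pairings within each strain where strains were centred. Of the wider lists, every gene past the threshold was named, otherwise the one with the smallest p. No pair of libraries of the same strain agreed within sampling noise. Vim, the principal components and the Nefl with Nefm ranking were chosen after seeing the data. The lowest estimated count of any of the 10 genes in a rat was 1473, for Nefh.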

Additional observations from a re-analysis of the deposited data

Results flagged for a closer look

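In 46 groups of 4 rats, the distance of the highest or lowest rat from its neighbour was compared with the range of the group, a check that chance fails in about 1 of 20 groups, and 6 groups stood out. SHR 1 lay apart from the other SHR in its normalised count of Nefl, 21905 against at most 12615, and in the Nefl share of filament TPM, 25.94% against at most 16.57%. SHR 1 also had the highest sum of the adipocyte and striated muscle list, 254.8 TPM. Adipoq, Fabp4 and Cfd peaked in that rat, but no tested muscle gene did. Wistar 1 lay apart in its normalised count of Gap43, 76925 against at most 68459 in the other Wistar rats, in its summed sympathetic neuron markers, 19980 TPM, and in its summed vascular markers, 85.0 TPM, the lowest of the Wistar group.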

How the results depend on the processing

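The count of the 10 genes past the threshold stayed at 0 under every alternative except leaving out SHR 1, where it was 1 (range 0 to 1). Calls among the other cytoskeleton genes numbered 3 in edgeR, 6 in DESeq2 and 6 in DESeq2 with a length offset (3 lower in SHR in each), and 0 with the replicate block, 0 in each direction. In limma on log2 TPM the 3 calls were Klf6, Pfn2 and Tmsb10. Leaving out 1 rat gave 0 to 7 calls, 0 to 6 higher and 0 to 2 lower. The share of all records called was counted only for the full edgeR and DESeq2 fits, at 2.85% and 5.72%, so the other counts describe the lists alone.

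Deviations of same-numbered rats from their strain mean had r between -0.263 and -0.0311, none of them positive. Rats of different numbers were not compared, so whether the numbers mark pairs was not tested. The median r of the 45 pairs was 0.437 with strains centred and -0.0015 to 0.291 without 1 rat. Pairs past the threshold numbered 2 on log2 TPM, 0 with strains centred and 0 to 1 without 1 rat. With strains centred only pairings within strains were used, too few for a single pair to pass adjustment over 45. That 0 therefore cannot tell whether the co-variation depends on strain. Nefl with Nefm had r = 0.922 there (adjusted p = 0.0694 by within-strain permutation).

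Directions turned in small differences. The log2 fold change of Stmn2 was 0.0159 with upper quartile scaling and -0.0907 to 0.0187 without 1 rat, and that of Tubb3 was -0.00312 without a filter, -0.00724 in limma and -0.0434 to 0.0465 without 1 rat. The Ina share of filament TPM differed by 0.183 percentage points on counts and by -0.403 to 0.346 without 1 rat, and the Tubb3 share by -0.363 to 0.55. Log2 ratios of marker sums without 1 rat ran from -0.228 (without SHR 1) to 0.719 for adipocyte and muscle, -0.487 to 0.0784 for fibroblast, -0.535 to 0.0885 for macrophage and -0.136 to 0.000299 for glial lists. The causes were not tested. The log2 fold changes of Nefl, Nefm, Nefh, Prph, Ina, Mapt, Tuba1a and Gap43 kept their direction under every alternative.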

Other observations

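Across the wider cytoskeleton lists, 73 of 113 genes had a negative r with the mean profile of Nefl and Nefm over the 8 rats, with a median r of -0.307, beside 52.1% of all other records with a negative r and a median of -0.029. Among the genes with the highest r were Dync1li1, a light intermediate chain of cytoplasmic dynein (r = 0.962), Dbn1, the actin-binding drebrin (0.958), and Dpysl5, a collapsin response mediator protein (0.923). Dync1li1 was at 342, 769, 1176 and 1255 normalised counts in Wistar 1 to 4 and 701, 356, 424 and 322 in SHR 1 to 4. Low r values were held by Map1b (r = -0.856) and Map1a (-0.833), large proteins that bind axonal and dendritic microtubules, and by the beta tubulins Tubb4a (-0.850) and Tubb4b (-0.838). Map1b was at 76743, 65881, 63939 and 58508 normalised counts in Wistar and 65271, 78413, 93238 and 89991 in SHR. These genes were picked for their r, so the values are a description of the 8 rats.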
